A study of Mus musculus with 6 samples.

Results

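Genes for the uptake and activation of fatty acids were examined in immortalized wild-type mouse proximal tubular epithelial cells (PTECs) treated for 6 hours with palmitic acid bound to bovine serum albumin (PA) or with albumin alone (BSA). The 9 genes, out of 24421 with a deposited value, were chosen by symbol as fatty acid transporters, fatty acid binding proteins and long-chain acyl-CoA synthetases: Cd36, Slc27a1, Slc27a4, Fabp3, Fabp5, Acsl1, Acsl3, Acsl4 and Acsl5. The comparison addresses how gene expression in PTECs differs when the albumin carries a saturated fatty acid. Messenger RNA was sequenced in 3 libraries from PA-treated PTECs and 3 libraries from BSA-treated PTECs. All of the cells came from cultured immortalized wild-type PTECs, a cell line model outside the tubule, and both groups received albumin. The labels do not say whether the libraries came from separate cultures, so p-values measure the spread between these libraries only.

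Long-chain fatty acids reach the proximal tubule from blood and bound to filtered albumin, which megalin takes up. At the membrane CD36 and the SLC27 (FATP) proteins promote their entry, and inside the cell fatty acid binding proteins (FABPs) carry them through the cytosol. Long-chain acyl-CoA synthetases (ACSLs) then attach coenzyme A, the step that commits a fatty acid to oxidation, to storage in triglyceride or to membrane phospholipid. Several SLC27 proteins also have acyl-CoA synthetase activity.

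Values are reads scaled to gene length and library size (RPKM), which may be compared between genes. A gene was called when its adjusted p from limma was under 0.05 after Benjamini-Hochberg adjustment over the 11671 genes whose mean RPKM reached 0.5. The libraries had 17850330 to 20189052 reads in PA-treated PTECs and 17679817 to 21568228 reads in BSA-treated PTECs. The epithelial keratin gene Krt8 was abundant, with a mean of 407 RPKM in PA-treated and 489 RPKM in BSA-treated PTECs, whereas the differentiated proximal tubule genes Slc34a1, Slc5a2 and Slc22a6 and the epithelial adhesion genes Cdh1 and Epcam were near 0. The adipocyte genes Fabp4, Plin1 and Cidec were at 0 in all 6 libraries. Of 16 epithelial and tubular markers, 8 were tested, and Krt8 and Krt18 were among those that fell. Of 7 fibroblast markers 2 were tested and 0 passed, and their summed level was 1.40 to 2.02 RPKM in PA-treated and 2.31 to 2.62 RPKM in BSA-treated PTECs. The summed level of 6 endothelial markers was at most 0.168 RPKM in PA-treated and 0.0975 RPKM in BSA-treated PTECs. That of 6 macrophage and immune markers was 2.20 to 3.09 RPKM with PA and 2.42 to 3.63 RPKM with BSA, mostly from Csf1r. That of 6 striated muscle markers was 9.76 to 10.5 RPKM with PA and 8.83 to 9.92 RPKM with BSA, mostly from Tnnt2. The part of these markers in the results was not tested, and in bulk RNA fewer cells of a type cannot be told apart from less RNA per cell. In BSA 1, BSA 2 and BSA 3 the departure of a gene from its group mean correlated with its GC content at 0.15, 0.07 and -0.20, across genes, which are not independent.

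Of the 8 tested members 5 rose with PA and 0 fell. They were Slc27a1, Acsl1, Acsl3, Acsl4 and Acsl5, beside 11.2% of all genes tested that were higher in PA-treated PTECs by the same call. The members were chosen with earlier results of these data known, so this count is a description only. Slc27a4, Fabp3 and Fabp5 did not pass, and Cd36 was too low to be tested. The median log2 fold change of the 8 tested members was 0.25, beside -0.04 over all genes tested. In 5 members the lowest PA library exceeded the highest BSA library, as in 18.2% of all genes, and groups without overlap in either direction were seen in 40.5% of all genes. Slc27a1 and Acsl3 also exceeded the study's log2 fold change limit of 0.4, as did 4.22% of all genes in this direction and 6.29% in either. The study set this limit for its edgeR test, and here it was applied to limma values. Acsl4 lay just under the limit at 0.39 and ran from 0.36 to 0.42 under 17 alternative settings.

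**Figure D1:**
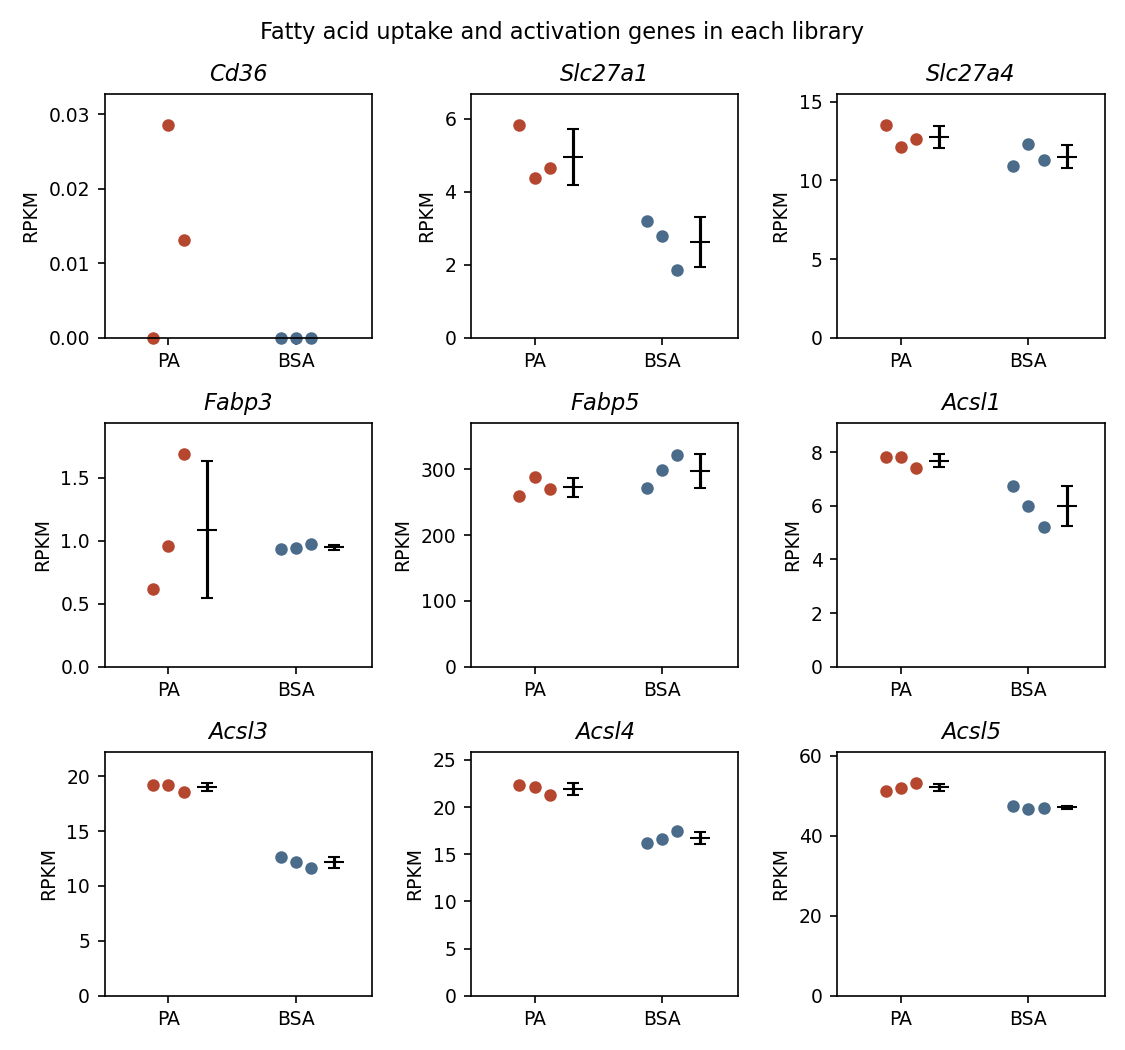
RPKM (vertical axes, each from 0) of the 9 genes in 3 libraries from PA-treated PTECs and 3 from BSA-treated PTECs; points are libraries in the order 1, 2, 3, and horizontal marks with bars are the mean ± SD, left out for Cd36. The PA points lie above the BSA points for Slc27a1, Acsl1, Acsl3, Acsl4 and Acsl5.

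The member with the largest increase was Slc27a1, and those with the smallest adjusted p were Acsl3 and Acsl4. For these 3 genes the DNA just before a transcription start is shown, and for Slc27a1, which has 3 such windows, the one with a motif match. Whether these windows regulate the genes was not tested. Windows of the 250 bases before RefSeq transcription starts (GRCm38.p6) were searched on both strands for 5 motifs. Of the 9 members 8 had a window, 11 windows in all. The E-box CACGTG, the core that TFEB and related factors bind, occurred in 1 of the 11 windows, at the third start of Slc27a1, 202 bases before it, and in 6.02% of all 32851 windows. The longer CLEAR element, that E-box with GT before it and AC after it, occurred in 0 of the 11 and in 0.24% of all windows. A PPAR direct repeat (AGGTCA, any base, AGGTCA, 0.0335% of all windows), a sterol element (ATCAC followed by CCCAC, 0.0731%) and an amino acid response element (TTGCATCA, 0.791%) also occurred in 0 of the 11. Motifs this rare, CLEAR included, would seldom occur in 11 windows, so their absence does not show that the members lack such sites. The E-box is in capitals in the Slc27a1 window (chr8:71570344-71570593, plus strand), followed by the windows of Acsl3 (chr1:78657575-78657824, plus strand) and Acsl4 (chrX:142390536-142390785, minus strand), which hold none of the 5 motifs. A match in such a window is a description of its letters and not of a bound site.
Slc27a1: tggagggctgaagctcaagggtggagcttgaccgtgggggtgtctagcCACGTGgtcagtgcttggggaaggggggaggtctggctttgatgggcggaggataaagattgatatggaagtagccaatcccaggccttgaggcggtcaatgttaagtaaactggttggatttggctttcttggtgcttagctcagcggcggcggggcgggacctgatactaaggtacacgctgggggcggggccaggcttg
Acsl3: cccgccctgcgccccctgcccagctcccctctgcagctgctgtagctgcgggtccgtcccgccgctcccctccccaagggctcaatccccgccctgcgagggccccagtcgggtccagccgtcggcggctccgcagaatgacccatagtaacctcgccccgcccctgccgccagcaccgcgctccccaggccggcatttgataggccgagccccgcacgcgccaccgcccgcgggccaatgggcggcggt
Acsl4: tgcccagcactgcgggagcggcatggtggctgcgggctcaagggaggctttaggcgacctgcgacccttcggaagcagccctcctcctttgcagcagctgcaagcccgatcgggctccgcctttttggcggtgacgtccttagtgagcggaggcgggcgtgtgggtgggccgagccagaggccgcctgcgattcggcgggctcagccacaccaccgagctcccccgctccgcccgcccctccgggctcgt

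The membrane transporters differed among themselves. Slc27a1 (chr8:71568882-71587302, GRCm38), which encodes FATP1, a transporter known from muscle and fat, had 5.81, 4.37 and 4.66 RPKM in PA-treated PTECs, against 3.198, 2.79 and 1.86 RPKM in BSA-treated PTECs. All 3 PA libraries were higher than all 3 BSA libraries, and BSA 3 was the lowest of the group. The means were 4.95 ± 0.764 RPKM with PA and 2.62 ± 0.685 RPKM with BSA (SD, n = 3 each), a 1.89-fold increase (log2 fold change 0.92, SE 0.19, 95% interval 0.47 to 1.37, limma adjusted p = 0.0152). This was higher than the log2 fold change of 98.9% of the genes tested. Without PA 1 the call was lost (0.80, limma adjusted p = 0.0506). It was kept without BSA 3 (0.70) and with the GC trend removed (0.93). The values rest on 328, 218 and 253 reads in the PA libraries and 179, 168 and 92 reads in the BSA libraries.

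Slc27a4 (chr2:29802634-29817522), encoding FATP4, was the more abundant SLC27 gene, with 13.5, 12.1 and 12.6 RPKM in PA-treated PTECs and 10.9, 12.3 and 11.3 RPKM in BSA-treated PTECs. The groups overlapped, and the log2 fold change of 0.15 (SE 0.06, limma adjusted p = 0.131) did not pass. The 95% interval of 0.00 to 0.29 contains no increase as large as that of Slc27a1, but the 2 genes' changes were not tested against each other. Cd36 (chr5:17781690-17888801), the scavenger receptor for long-chain fatty acids, was at the limit of detection. It had 0, 2 and 1 reads in the PA libraries and 0, 0 and 0 reads in the BSA libraries. A count of 0 allows up to 3 reads, which is 0.0354 to 0.0432 RPKM in these libraries and covers counting error only, so no fold change is given. Over all 6 SLC27 genes, the summed level was 20.1 ± 1.499 RPKM in PA-treated and 17.1 ± 0.872 RPKM in BSA-treated PTECs (SD, n = 3 each), with a ratio of 1.18 and an exact two-sided permutation p of 0.1, the smallest possible here.

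Neither binding protein gene passed the test. Fabp5 (chr3:10012548-10016607), the epidermal-type FABP, was the most abundant member and had 260.0, 288.8 and 269.4 RPKM in PA-treated PTECs, against 271.9, 298.4 and 322.4 RPKM in BSA-treated PTECs. The groups overlapped, with BSA 3 the highest library and PA 1 the lowest. Processed copies of Fabp5 exist in the mouse genome, so how its reads were counted is uncertain. The log2 fold change was -0.12 (SE 0.06, 95% interval -0.27 to 0.03, limma adjusted p = 0.214). It was -0.19 without BSA 1 and -0.06 without BSA 3, and passed in neither case. Fabp3 (chr4:130308595-130315463), the heart-type FABP, was scarce, at 0.619, 0.963 and 1.69 RPKM in PA-treated PTECs and 0.936, 0.942 and 0.972 RPKM in BSA-treated PTECs. The BSA libraries were close together and lay within the range of the PA libraries. With 8 to 21 reads per library, the 95% interval of the log2 fold change of 0.08 (SE 0.31, limma adjusted p = 0.877) ran from -0.63 to 0.79. It shares 81 exon bases with Zcchc17 on the opposite strand, which fell (log2 fold change -0.23, limma adjusted p = 0.0172) and was far more abundant, at means of 21.5 RPKM with PA and 25.2 RPKM with BSA. No source used here gives the strand setting of the counting, without which reads in the shared bases cannot be assigned to either gene.

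All 4 ACSL members rose. Acsl3 (chr1:78657825-78707743), an ACSL of the endoplasmic reticulum and lipid droplets, had 19.2, 19.2 and 18.6 RPKM in PA-treated PTECs, against 12.6, 12.2 and 11.6 RPKM in BSA-treated PTECs. The gap between the groups was far wider than the spread within either. The increase was 1.56-fold (log2 fold change 0.64, SE 0.05, 95% interval 0.54 to 0.75, limma adjusted p = 8.5e-05). Acsl4 (chrX:142317993-142390535), which prefers arachidonate and other polyunsaturated fatty acids, had 22.3, 22.2 and 21.2 RPKM in PA-treated PTECs, against 16.2, 16.6 and 17.4 RPKM in BSA-treated PTECs. It was 1.31-fold higher (log2 fold change 0.39, SE 0.04, 95% interval 0.29 to 0.49, limma adjusted p = 0.000863), with no overlap. Acsl3 and Acsl4 passed under all 17 alternative settings. Acsl3 shares 244 exon bases with Utp14b on the same strand, a gene whose log2 fold change was 0.22 (limma adjusted p = 0.0507) at mean levels of 4.55 RPKM with PA and 3.87 RPKM with BSA.

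The other increases were smaller. Acsl1 (chr8:46471037-46536051), the main ACSL of liver, heart and fat, had 7.83, 7.80 and 7.40 RPKM in PA-treated PTECs, against 6.74, 6.00 and 5.22 RPKM in BSA-treated PTECs. The PA libraries were close together and the BSA libraries spread, with BSA 3 the lowest. Its 1.28-fold increase (log2 fold change 0.36, SE 0.09, 95% interval 0.15 to 0.57, limma adjusted p = 0.0283) was lost in 6 of 17 alternatives: without a filter on low values, without a variance trend, and without PA 1, PA 2, PA 3 or BSA 2, with adjusted p up to 0.0947. Acsl1 shares 1039 exon bases with Gm45244 on the opposite strand, where the unknown strand setting leaves the assignment of reads uncertain. Acsl5 (chr19:55251938-55297720), an ACSL of the endoplasmic reticulum and mitochondria known from intestine, was the most abundant ACSL. It had 51.2, 51.9 and 53.1 RPKM in PA-treated PTECs, against 47.4, 46.7 and 47.0 RPKM in BSA-treated PTECs. Its increase was the smallest of the called members, at 1.11-fold (log2 fold change 0.15, SE 0.03, 95% interval 0.07 to 0.22, limma adjusted p = 0.0145), and was lost without PA 2, PA 3 or BSA 2, with adjusted p up to 0.0674. It shares 404 exon bases with Zdhhc6 on the opposite strand, whose own log2 fold change was 0.00 (limma adjusted p = 0.954). Reads in those shared bases are uncertain for the same reason.

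**Figure D2:**
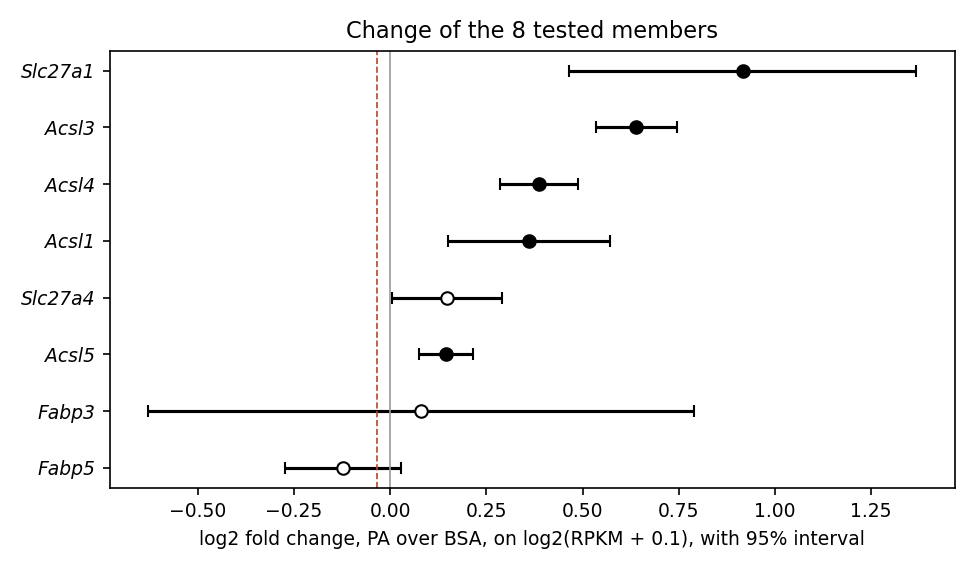
Log2 fold change, PA over BSA, on log2(RPKM + 0.1), of the 8 tested members (horizontal axis) with 95% intervals; filled points passed the test, open points did not, and the dashed line is the median of all genes tested (-0.04). The filled points run from 0.15 for Acsl5 to 0.92 for Slc27a1.

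The members spanned a wide range of levels, and their order was the same in both groups. In PA-treated PTECs the mean RPKM ran from Fabp5 (272.7) through Acsl5 (52.1), Acsl4 (21.9), Acsl3 (19.0), Slc27a4 (12.8), Acsl1 (7.68), Slc27a1 (4.95) and Fabp3 (1.09) to Cd36. The libraries of neighbours in that order did not overlap. In BSA-treated PTECs Acsl3 (12.2) and Slc27a4 (11.5) overlapped, and the other neighbours did not.

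Within the ACSL family, Acsl3 had a larger share and Acsl5 a smaller share in every PA library than in any BSA library. The summed RPKM of Acsl1, Acsl3, Acsl4, Acsl5 and Acsl6 was 101.6 ± 0.335 in PA-treated and 82.8 ± 0.892 in BSA-treated PTECs (SD, n = 3 each), a ratio of 1.23 (exact two-sided permutation p = 0.1). Acsl3 made up 18.7 ± 0.323% of this sum with PA and 14.7 ± 0.496% with BSA, a difference of 4.01 percentage points. Acsl5 made up 51.2 ± 0.984% with PA and 56.8 ± 0.274% with BSA, a difference of -5.61 points. For both genes the groups did not overlap, and the exact permutation p was 0.1, the smallest that 3 against 3 libraries can give, or 0.25 after Benjamini-Hochberg adjustment over the 5 shares. This exact test therefore cannot reach 0.05 with these libraries. The shares of Acsl4 (exact permutation p = 0.2), Acsl1 (p = 0.6) and Acsl6 (p = 0.6) differed by 1.34, 0.33 and -0.06 points. The Acsl4 difference was 0.881 points without BSA 1 and 1.81 points without BSA 3. A share does not depend on the scaling of a library.

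**Figure D3:**
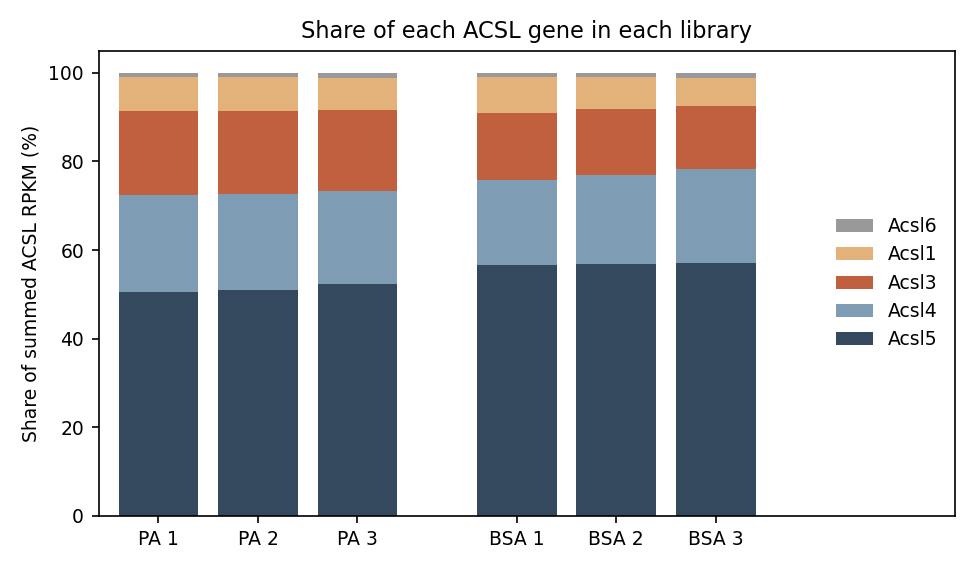
Share (%) of each ACSL gene in the summed RPKM of 5 ACSL genes (vertical axis, from 0) in each of the 3 PA and 3 BSA libraries. The Acsl3 segment averages 18.7% in PA and 14.7% in BSA libraries, and the Acsl5 segment 51.2% in PA and 56.8% in BSA libraries.

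The genes around this pathway, 71 in 10 lists, included genes called in both directions. Of the 36 tested, 9 rose, 4 fell and 23 did not pass, beside 11.2% of all genes higher and 9.52% lower in PA-treated PTECs, and their median log2 fold change was 0.02. Among other transporters, Slc27a3 (-0.27, limma adjusted p = 0.139) was the only one of 4 SLC27 genes tested, and Slc27a2 was at 0. The CD36 relative Scarb2, which encodes the lysosomal membrane protein LIMP-2, had 14.7, 13.9 and 12.2 RPKM in PA-treated PTECs, against 10.3, 10.3 and 9.97 RPKM in BSA-treated PTECs. It rose by a log2 fold change of 0.41 (SE 0.07, limma adjusted p = 0.00601), and the other relative, Scarb1, the receptor for high-density lipoprotein, had 0.10 and did not pass. Of the albumin uptake genes, the megalin adaptor gene Dab2 fell (log2 fold change -0.24, limma adjusted p = 0.0231). The megalin gene Lrp2 (-0.19, limma adjusted p = 0.118) and the cubilin gene Cubn (-0.08, limma adjusted p = 0.749) did not pass. Under voom on recovered reads, 2 albumin uptake genes passed as lower. The caveolar genes Cav1 (-0.28, limma adjusted p = 0.0147) and Ehd2 (-0.26, limma adjusted p = 0.00387) fell, and 5 of 7 tested caveolar genes did not pass. The membrane fatty acid binding gene Got2 had a log2 fold change of 0.04. The other 8 FABP genes were all under the filter, and 5 of them were at 0 in all libraries. The call for Dab2 was lost without PA 2, PA 3 or BSA 2 (adjusted p up to 0.0694), and that for Cav1 without PA 3 or BSA 2 (adjusted p up to 0.0584).

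Among the enzymes that make, bind and cleave acyl-CoA, 3 of 6 other tested synthetases rose. By the same call 11.2% of all genes tested were higher in PA-treated PTECs and 9.52% lower. Aacs, which activates acetoacetate for lipid synthesis, had 61.9, 64.8 and 65.3 RPKM in PA-treated PTECs, against 40.0, 40.3 and 36.5 RPKM in BSA-treated PTECs (log2 fold change 0.72, SE 0.05, limma adjusted p = 5.03e-05). Acsbg1, a very-long-chain synthetase of the bubblegum family, rose by a log2 fold change of 0.64 (limma adjusted p = 0.00287), and Acss2, which activates acetate, by 0.58 (limma adjusted p = 0.00563). Of 7 tested acyl-CoA thioesterases, which release free fatty acids from acyl-CoA, 3 rose and 1 fell. Acot2, of mitochondria, had 4.06, 3.57 and 3.23 RPKM in PA-treated PTECs, against 1.45, 1.05 and 0.746 RPKM in BSA-treated PTECs (log2 fold change 1.69, SE 0.21, limma adjusted p = 0.0015). Acot1, of the cytosol, had a log2 fold change of 1.19 (limma adjusted p = 0.013), Acot13 one of 0.23 and Acot9 one of -0.14. Acot1 and Acot2 are near-identical copies, so how the counting split reads between them is uncertain. Among acyl-CoA binding proteins Dbi rose (0.16, limma adjusted p = 0.048), and the lipid-activated receptor gene Pparg rose by a log2 fold change of 0.56 (limma adjusted p = 0.0264) and was the only one of 4 tested PPAR and RXR genes to pass here. Under median-of-ratios scaling, the replicate block, removal of the GC trend, the block with that removal, and voom, 2 of these genes passed. The calls for Acot13, Acot9, Dbi and Pparg were lost in 3, 8, 7 and 4 of the 17 alternatives.

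**Figure D4:**
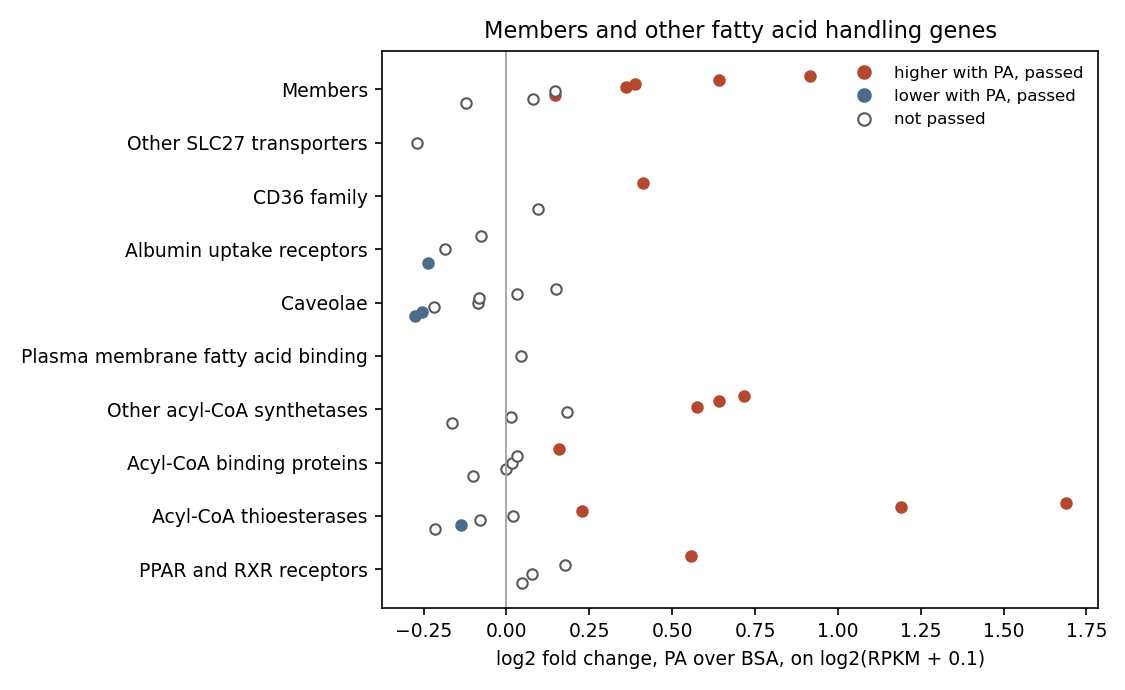
Log2 fold change, PA over BSA, on log2(RPKM + 0.1) (horizontal axis) of each tested gene among the members and 9 other lists with tested genes (rows); filled points passed the test and open points did not. The 5 called members lie between 0.15 and 0.92, and the caveolar genes that passed at -0.28 and -0.26.

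Among the genes most like Slc27a1 over the 6 libraries, by Pearson's r of log2(RPKM + 0.1) across 8281 genes with a mean of at least 5 RPKM, were Hdac5 (r = 0.999) and Ntn1 (0.998). This is a description, since 678 genes had r over 0.9 and the libraries share the treatment difference and the low BSA 3. Hdac5, encoding a histone deacetylase, averaged 15.5 RPKM in PA-treated and 11.2 RPKM in BSA-treated PTECs.

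**Figure D5:**
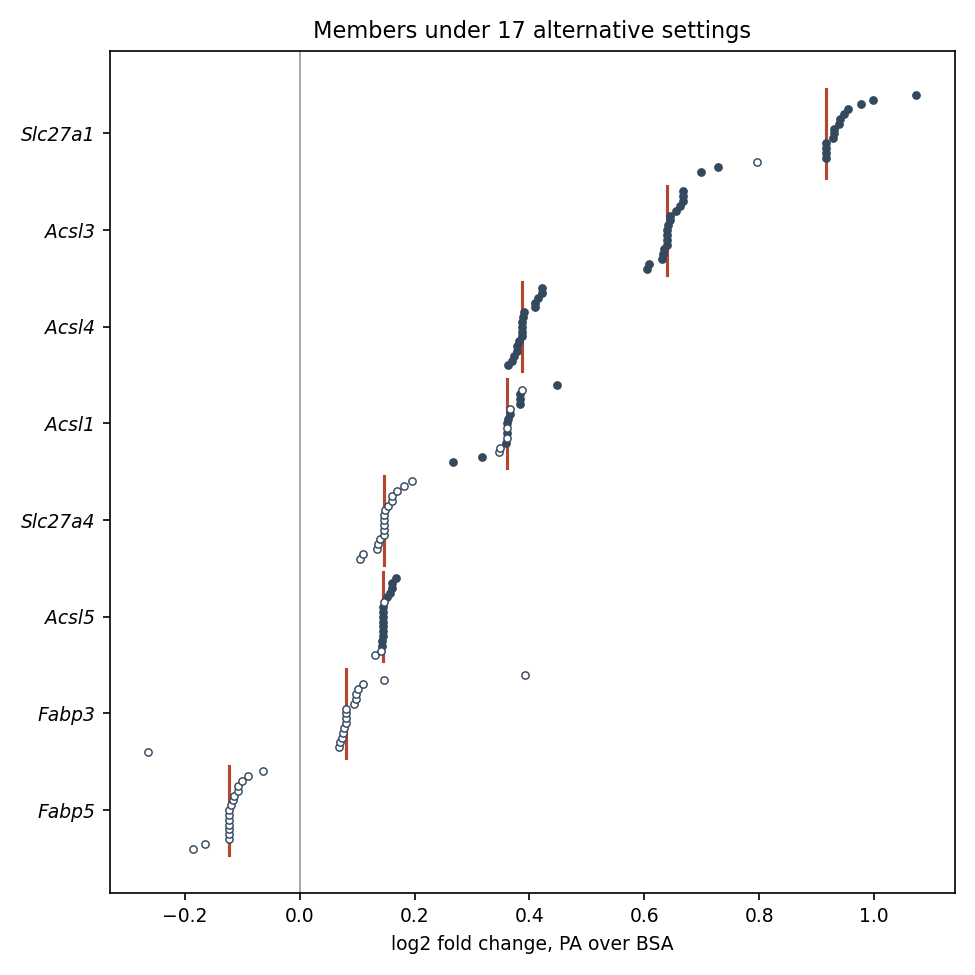
Log2 fold change of the 8 tested members (rows) under 17 alternative settings (points; filled where the adjusted p was under 0.05, open where not) with the reported value as a vertical line. The points of Acsl3 and Acsl4 are all filled and lie between 0.60 and 0.67 and between 0.36 and 0.42, and those of Fabp3 lie between -0.26 and 0.39.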

How the data were processed

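The authors made base calls with bcl2fastq and mapped reads to GRCm38 with TopHat2 2.1.1 and Bowtie2. The counter of reads, the gene annotation and the strand setting were not given in the sources used here. Values in RPKM per gene and library were deposited by the authors. From the authors' own test the deposited table also gives each gene's log2 fold change, p-value, false discovery rate and rank, none of which was used. Columns were matched to the labels by the treatment initial and the replicate number in their names.

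Library sizes (17679817 to 21568228 reads) and reads per gene were inferred from the steps of the RPKM values, with each gene's length taken as the smallest that gives whole reads (tolerance 1e-06). The inferred reads sum to 99.4% of each library size, and read numbers near the floor rest on this inference. The test was limma 3.58.1 (R 4.3.3, eBayes with a variance trend) on log2(RPKM + 0.1) with treatment as the only term, for genes whose mean RPKM reached 0.5. A fold change on this scale understates the change of low genes. ACSL shares were compared by exact permutation. Positions are from GENCODE vM21 on GRCm38 and promoter windows from RefSeq on GRCm38.p6.

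Named genes were all 9 members; in each other list, up to 4 genes that passed with the greatest change or, where none passed, up to 2 with the highest mean; and the 3 genes most like Slc27a1. Some genes under this rule or among the markers are not reported here. Other genes named beside these were chosen after their values were seen. The members and lists were chosen with earlier results of these data known. Alternatives covered the pseudocount, the filter, the scaling, the variance trend, a GC trend, voom on recovered reads, a replicate block and each library left out.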

Additional observations from a re-analysis of the deposited data

How the results depend on the processing

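Slc27a4, Fabp3 and Fabp5 did not pass under any of the 17 alternatives, and no called member changed direction. With each library left out in turn, the number of genes called ranged from 1210 (without PA 2) to 3007 (without BSA 3), against 2413; it was 1325 without PA 3 and 1379 without BSA 2. The number of members called ranged from 3 to 5, with 3 without PA 1, PA 2, PA 3 or BSA 2, and that of the other lists from 7 to 16, with 8 without PA 2 and 7 without PA 3, against 13. Fewer libraries enter each of these fits. Of all calls, 54.0% were higher in PA-treated PTECs, against 64.8% with median-of-ratios scaling, 60.5% with no filter and 61.3% with the GC trend removed. With a library left out this share ran from 45.4% (without BSA 3, where most calls were lower) to 67.7% (without PA 2). The median of all genes stayed within 0.1 on the log2 scale. With libraries left out, the difference of the Acsl1 share ranged from -0.109 to 0.732 points and that of the Acsl6 share from -0.142 to 0.0238 points, and without BSA 3 both were opposite in sign to the values with all libraries; the cause was not tested. Deviations of same-numbered PA and BSA libraries correlated at 0.03, -0.04 and 0.09. PA 3 correlated best with BSA 3, and PA 1 with BSA 1 by a narrow margin (0.0348, against 0.0345 with BSA 2). PA 2, however, correlated best with BSA 1 (0.07). With 3 libraries per group these correlations cannot decide whether the replicate numbers pair the libraries. With the replicate block, 2575 genes, 5 members and 14 genes of the other lists were called. Depth limits Fabp3 and Cd36, whose values rest on at most 21 and 2 reads per library.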
